A study of Homo sapiens with 12 samples.

Results

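The genes described here encode subunits of the mitochondrial respiratory chain. They were chosen by symbol alone, and 80 of the 58721 genes in the count table qualified: 13 that lie on the mitochondrial genome and 67 that lie in the nucleus. The mitochondrial members encode 7 subunits of complex I, 1 of complex III, 3 of complex IV and 2 of the ATP synthase, and the nuclear members were assigned by symbol to complex I (37), complex II (4), complex III (9) and complex IV (17). A further 64 pseudogenes and 2 non-coding genes whose symbols matched were left out.

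Expression was measured by RNA-seq of polyadenylated RNA in EW8 and TC71, both established Ewing sarcoma cell lines driven by the fusion protein EWS-FLI1. Each line carried a lentiviral Tet-On system, with the transactivator under the EF1 alpha promoter, and a doxycycline-responsive cassette coding for c-Jun and c-Fos, which together form the transcription factor AP-1. The groups were EW8 and TC71 treated for 72 h with vehicle (DMSO) or with doxycycline at 2000 ng/ml, with 3 libraries in each of 4 groups. The sample descriptions call the vehicle libraries WT and the doxycycline libraries AP1_overexpression, although both carried the construct. Doxycycline is known to inhibit translation in mitochondria, and with no doxycycline-treated cells lacking the transgenes analysed here, effects of the drug on these genes and effects of AP-1 cannot be told apart. Nothing in the labels says that the 3 libraries of a group came from separate cultures, so the p-values measure the spread between libraries, which may be technical.

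The respiratory chain passes electrons from NADH (complex I) and succinate (complex II) through complex III and cytochrome c to oxygen at complex IV, and the proton gradient that results drives the ATP synthase. Complexes I, III and IV and the ATP synthase are built from products of both genomes, whereas complex II is wholly nuclear. Mitochondrial mRNAs are cut from long transcripts of the whole mitochondrial genome, so their levels tend to move together, while each nuclear member has its own promoter. Ewing sarcoma cells, like other proliferating tumor cells, are known to use both glycolysis and respiration.

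JUN ran from 18 to 25.4 CPM (counts scaled to library size by the TMM method) in the 6 vehicle libraries and from 422 to 814 CPM in the 6 doxycycline libraries, and FOS from 11.2 to 37.6 CPM and from 999 to 1686 CPM, so each library followed its label. Libraries held 42860665 to 60853649 counts. Of 12 Ewing sarcoma markers, all were above 6 counts in at least 1 library of each group, except CCK, which was not in TC71 under vehicle. Of 5 leukocyte markers, PTPRC averaged 65.9 and 74.9 CPM in EW8 under vehicle and doxycycline, and the summed level of the list ran from 0.0776 to 0.558 CPM over the TC71 libraries. The summed level of 4 endothelial markers, led by PECAM1, ran from 7.54 to 8.72 CPM under vehicle and from 37.4 to 44.3 CPM under doxycycline in EW8, and from 0.0644 to 0.382 CPM and from 3.85 to 5.14 CPM in TC71. Sums of 4 epithelial markers, led by KRT8 and KRT18, ran from 9.56 to 10.2 CPM and from 50.7 to 54.8 CPM in EW8 and from 177 to 215 CPM and 227 to 241 CPM in TC71, while those of 8 fibroblast markers ran from 166 to 180 CPM and 141 to 150 CPM in EW8 and from 270.1 to 310 CPM and 284 to 297 CPM in TC71. Any part of these shifts in the results below was not tested.

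As a share of all gene counts, the nuclear members were lower in each doxycycline library than in any vehicle library of the same line, and the mitochondrial members were not. The 67 nuclear members together held 0.616, 0.641 and 0.620% of counts in the EW8 vehicle libraries and 0.553, 0.550 and 0.564% in the EW8 doxycycline libraries. In TC71 they held 0.572, 0.576 and 0.579% under vehicle and 0.502, 0.499 and 0.501% under doxycycline. The nuclear groups thus did not overlap in either line. The 13 mitochondrial members held 1.83, 1.84 and 1.45% of counts in EW8 under vehicle and 1.69, 1.69 and 1.71% under doxycycline, and these groups overlapped. In TC71 they held 2.66, 1.14 and 1.19% under vehicle and 1.34, 1.27 and 1.33% under doxycycline, where 1 vehicle library lay above and the other two below all doxycycline libraries. A lower share in bulk RNA can come from fewer cells with the transcript, from less transcript per cell or from more RNA of other genes. These were not distinguished. Scaled by library size alone, the median log2 fold change of the nuclear members was -0.178 in EW8 and -0.251 in TC71. Over all genes it was -0.089 and -0.079 under that scaling.

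TC71 vehicle replicate 1 stood apart from its fellow replicates. Over all genes, the chi-square statistic per gene was 65.5 and 63.1 between it and replicates 2 and 3, beside 9.3 between replicates 2 and 3 and 5.4 to 11.2 between replicates of the other groups. The largest departure among the members was in mitochondrial transcripts. Its 13 mitochondrial genes had 1341299 counts, against 693438 and 605806 in replicates 2 and 3, although its total of 50433435 counts lay close to the 51105225 of replicate 3. Relative to the mean of replicates 2 and 3, its mitochondrial members were higher by 0.86 to 1.55 on the log2 scale (median 1.24), whereas the 58 nuclear members with at least 1 CPM in every library had a median deviation of -0.05. The 2 mitochondrial ribosomal RNAs, which are not members, moved with it, at 0.149% of counts against 0.0826% and 0.0904%. In the 9 libraries outside the TC71 vehicle group, the median deviation of the mitochondrial members from their fellow replicates ran from -0.36 in EW8 vehicle replicate 3 to 0.18 in EW8 vehicle replicate 2. For this reason results in TC71 that turn on this library are given with and without it.

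The ratio of mitochondrial to nuclear counts followed from these shares. On the log2 scale it was 1.57, 1.52 and 1.23 in EW8 under vehicle (1.44 ± 0.19, SD, n = 3) and 1.61, 1.62 and 1.60 under doxycycline (1.61 ± 0.01, SD, n = 3). The mean difference of 0.17 was smaller than the vehicle SD, although no vehicle library reached the lowest of the 3 doxycycline libraries. In TC71 the ratio was 2.22, 0.98 and 1.03 under vehicle (1.41 ± 0.70, SD, n = 3) and 1.42, 1.35 and 1.41 under doxycycline (1.39 ± 0.04, SD, n = 3), a difference of -0.02. Without TC71 vehicle replicate 1 the difference in TC71 was 0.39, with all 3 doxycycline libraries above the 2 remaining vehicle libraries.

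**Figure D1:**
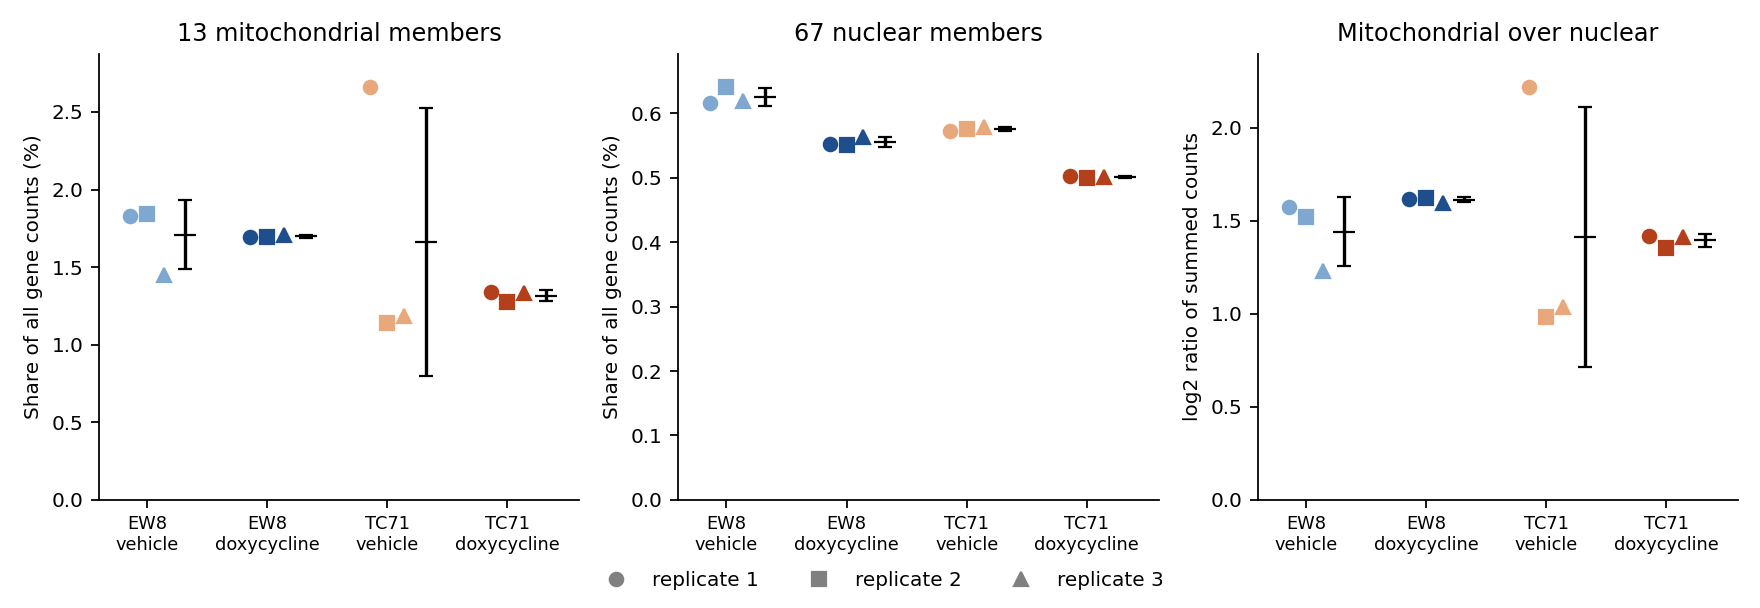
Share of all gene counts (%, left and middle) and log2 ratio of summed counts (right) for the 13 mitochondrial and 67 nuclear members, with 1 point per library, shaped by replicate, and the mean and SD of each group of 3 in black. The nuclear share is lower in every doxycycline library than in every vehicle library of the same line, and TC71 vehicle replicate 1 holds 2.66% of its counts in mitochondrial members against 1.14% and 1.19% in replicates 2 and 3.

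None of the 13 mitochondrial members passed an adjusted p of 0.05 for doxycycline against vehicle in either line when all 12 libraries were fitted, and none had an unadjusted p under 0.05 in EW8, while 1 was lower at that level in TC71, and DESeq2 also called none in either line. Of all 21013 genes tested, 21.9% were called higher and 22.0% lower in EW8, and 25.1% were called higher and 20.4% lower in TC71. The median log2 fold change of the mitochondrial members was 0.05 in EW8 (range -0.16 to 0.21) and -0.26 in TC71 (range -0.57 to 0.19), beside medians over all genes of -0.03 and 0.00.

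Without TC71 vehicle replicate 1, all 13 mitochondrial members had a positive log2 fold change in TC71, from 0.04 to 0.52 with a median of 0.27, and 9 of 13 were called higher, beside 22.1% of all genes in that fit. All 13 were also higher in each doxycycline library than in both remaining vehicle libraries, which held for 31.9% of all genes. The 9 were MT-ND2, MT-ND3, MT-ND4, MT-ND4L, MT-ND5 and MT-ND6 of complex I, MT-CYB of complex III, and MT-ATP6 and MT-ATP8 of the ATP synthase. The members that did not pass were MT-ND1 and the complex IV subunits MT-CO1, MT-CO2 and MT-CO3, at 0.07, 0.09, 0.12 and 0.04.

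MT-CYB, the cytochrome b subunit of complex III (chrM:14747-15887 in hg38, plus strand), had the largest of these values. In TC71 it stood at 1299, 528 and 572 CPM under vehicle and 850.0, 802 and 845 CPM under doxycycline. The lone high vehicle library lay above all 3 doxycycline libraries and the other two below them. With all libraries its change did not pass (log2 fold change 0.06, SE 0.22, edgeR adjusted p = 0.872), and without replicate 1 it did (log2 fold change 0.52, SE 0.07, edgeR adjusted p = 9.11e-07). In EW8 it stood at 970.3, 1013 and 767 CPM under vehicle and 1058, 1063 and 1068 CPM under doxycycline, where the groups did not overlap, but the change did not pass (log2 fold change 0.21, SE 0.22, edgeR adjusted p = 0.473).

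MT-ND3, a small complex I subunit, stood at 252, 134 and 134 CPM under vehicle and 202, 192 and 199 CPM under doxycycline in TC71 and changed by 0.48 without replicate 1 (SE 0.07, edgeR adjusted p = 1.06e-06). MT-CO1, the catalytic subunit of complex IV, stood at 5944, 2749 and 2873 CPM under vehicle and 3222, 3109 and 3125 CPM under doxycycline, and its change without replicate 1 was 0.09 (SE 0.05, edgeR adjusted p = 0.206). The remaining called members changed by 0.20 (MT-ND4L) to 0.40 (MT-ATP6). With all libraries, 11 of 13 had a negative log2 fold change in TC71, and these turned positive without that library. Leaving out TC71 vehicle replicate 2 or 3 instead, so that the high library weighed more, 5 of 13 were called lower in either case (medians -0.48 and -0.50). Of all genes in those fits, 4005 of 21956 and 4456 of 21949 were called lower. With all 12 libraries but no filter on low counts, 10 of 13 passed in TC71, MT-ND3 higher and 9 lower. The share of all genes called in that fit is not given here.

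The fit of 12 libraries uses a single estimate of the spread per gene, so the high TC71 library also entered the error of the EW8 comparison. Fitted on the 6 EW8 libraries alone, 4 of 13 mitochondrial members were called higher with doxycycline, beside 27.5% of all 19392 genes tested there. They were MT-CYB at 0.26, MT-ND3 at 0.21, MT-ATP6 at 0.21 and MT-CO3 at 0.16 on the log2 scale, with SEs of 0.05 to 0.06. The same 4 passed when only TC71 vehicle replicate 1 was left out of the 12. EW8 vehicle replicate 3 lay below the mean of its fellow replicates in all 13 mitochondrial members, as MT-ND1 shows at 1037, 1078 and 812 CPM over the 3 vehicle libraries. With that library left out of the 12, MT-CYB was at 0.14, MT-ND3 at 0.14, MT-ATP6 at 0.10 and MT-CO3 at 0.05, none passed. The median of the 13 was then -0.035, beside 0.017 over all genes. That fit still held TC71 vehicle replicate 1.

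**Figure D2:**
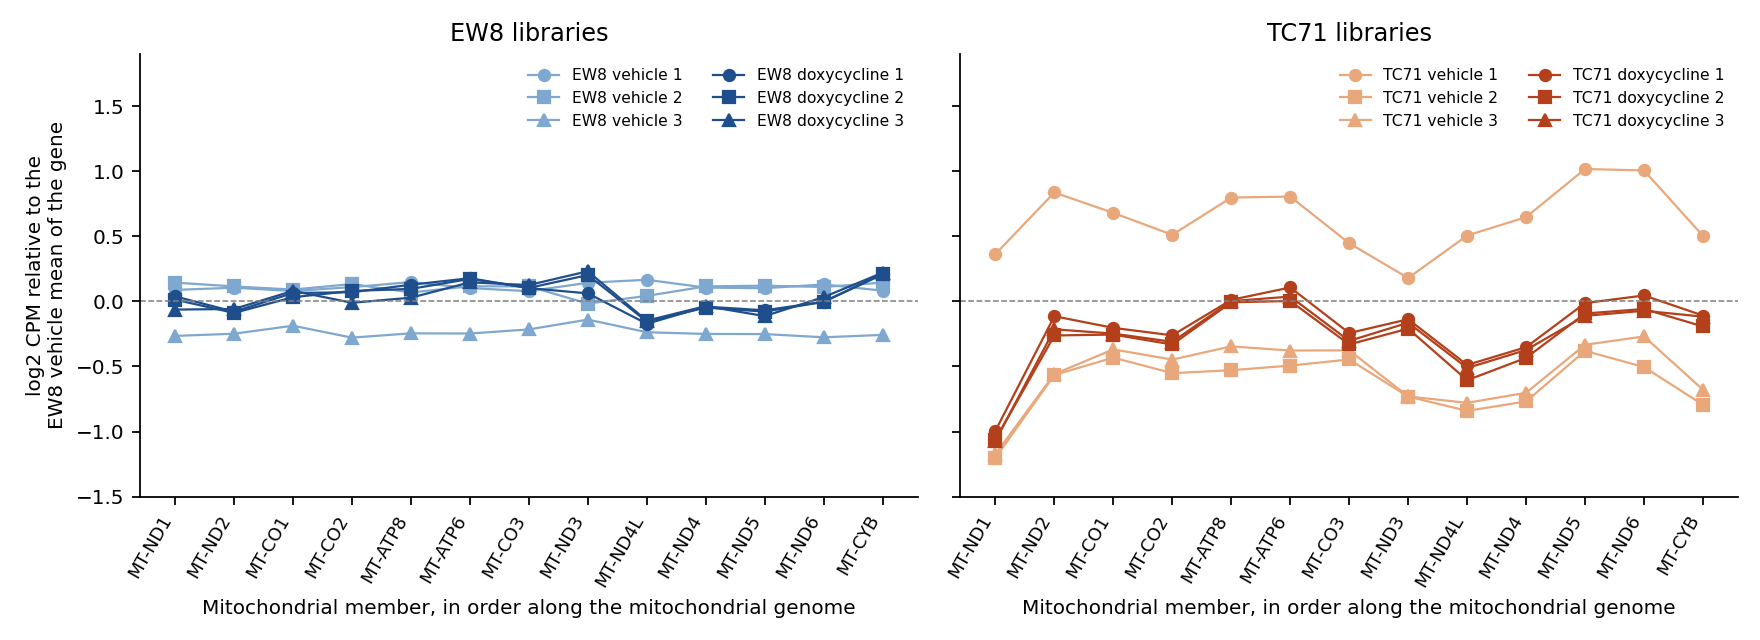
CPM of each of the 13 mitochondrial members as a log2 ratio to the mean of the 3 EW8 vehicle libraries, in order along the mitochondrial genome, with 1 line per library for EW8 (left) and TC71 (right). TC71 vehicle replicate 1 lies above every other TC71 library at each gene, and the 3 TC71 doxycycline libraries lie above TC71 vehicle replicates 2 and 3 at all 13 genes.

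Between the lines under vehicle, no mitochondrial member passed with all libraries (median log2 fold change of TC71 against EW8 -0.07). The counts at an unadjusted p under 0.05 were 0 higher and 1 lower, and DESeq2 also called none. Without TC71 vehicle replicate 1, 13 of 13 were called lower in TC71 than in EW8, beside 29.8% of all genes, with log2 fold changes of -0.25 (MT-ND5) to -1.08 (MT-ND1). MT-ND1 stood at 1037, 1078 and 812 CPM in EW8 and at 1255, 424 and 432 CPM in TC71 under vehicle. Under doxycycline it was at 1002, 985 and 934 CPM in EW8 and at 489.5, 467 and 464 CPM in TC71, so every TC71 library but 1 lay below every EW8 library. The responses of the lines differed for 5 of 13 mitochondrial members without that library (MT-ND2, MT-ND3, MT-ND4, MT-ND4L and MT-CYB, each by 0.26 to 0.32 more in TC71), beside 23.6% of all genes, and for none with it, beside 19.3%.

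Per base of exon, mitochondrial transcripts far exceeded nuclear ones. In RPKM (CPM per kilobase of exon), the median of the 13 mitochondrial members was 1020 in EW8 and 898 in TC71 under vehicle, and the median of the 67 nuclear members was 26.4 and 23.0. Without TC71 vehicle replicate 1 the TC71 medians were 599.9 and 22.6 RPKM. The complex IV transcripts led the mitochondrial order in all 4 groups. In EW8 under vehicle, MT-CO3 was at 3372 ± 408, MT-CO2 at 3355 ± 511 and MT-CO1 at 2406 ± 253 RPKM (SD, n = 3), of which MT-CO3 and MT-CO2 lay within each other's spread. MT-ATP6 followed at 1724 ± 235 RPKM and MT-ND4 at 1560 ± 215 RPKM. MT-ND6, the sole mitochondrial member read from the opposite strand, was the lowest at 363 ± 54.9 RPKM. Nuclear copies of mitochondrial genes took 7.47% to 8.87% of the combined counts in the 12 libraries, and reads that matched a gene and its copy equally were dropped before counting.

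Among the nuclear members, the highest levels per base under vehicle were those of COX6B1 (560.2 ± 35.7 RPKM in EW8), which encodes a complex IV subunit, and of the complex I subunit genes NDUFS5 (306 ± 9.33) and NDUFB7 (171 ± 17.9). In TC71 the order was NDUFS5 at 332 ± 10.9, NDUFB7 at 179 ± 28.5 and COX6B1 at 174 ± 15.5 RPKM, of which the last pair lay within each other's spread. The length counts every annotated exon base of a gene, 936 for COX6B1, 548 for NDUFS5, 531 for NDUFB7 and 3475 for UQCRFS1. Where the main transcript is shorter, RPKM is understated, in the comparison of the genomes above too. In CPM, UQCRFS1 (294, 303 and 297 in EW8 under vehicle) lay above NDUFS5 (173, 167 and 163). The low levels of NDUFA7, NDUFV2 and NDUFA13 may be understated, which was not tested. Other annotated genes, among them unnamed ones on the same strand, cover 33.5%, 28.4% and 21.0% of their exon bases, and reads shared between genes were dropped. The same holds for NDUFB8, covered over 48.5%.

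Of the 67 nuclear members, 63 passed the filter on low counts. With doxycycline, 23 of 63 (36.5%) were called lower and 1 (1.59%) higher in EW8, beside 22.0% and 21.9% of all genes. In TC71, 26 (41.3%) were called lower and 5 (7.94%) higher, beside 20.4% and 25.1%. With libraries scaled by TMM without the mitochondrial genes, the split in EW8 was 16 lower and 3 higher. Under that scaling the median log2 fold change was -0.074, beside 0.012 over all genes. The shares of all genes called under it are not given here, so that split describes the members alone. With all libraries and the main scaling, the medians were as follows. The median log2 fold change was -0.12 in EW8 (quartiles -0.25 and -0.04) and -0.16 in TC71 (quartiles -0.28 and 0.03), beside -0.03 and 0.00 over all genes. All calls in EW8, and all but 2 in TC71, were under a log2 fold change of 1, a limit that 14.8% of all genes passed in EW8 and 16% in TC71. Without overlap between the groups, 29 of 63 lay lower with doxycycline in EW8 and 28 in TC71, beside 29.1% and 23.1% of all genes.

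By complex, complex I had 13 of 37 lower and 1 higher in EW8 and 15 lower and 3 higher in TC71. Complex II had 1 and 2 of 4 lower, complex III 6 and 4 of 9 lower with 1 higher in TC71, and complex IV 3 and 5 of 13 tested lower with 1 higher in TC71. Without TC71 vehicle replicate 1, 33 of 63 were called lower in TC71, which included all 26, beside 23.9% of all genes. The 7 added were COX4I1, COX6B1, COX7A2L, NDUFA2, NDUFA8, NDUFB11 and UQCRQ. In EW8, 12, 13 and 14 of 63 were called lower when doxycycline replicate 1, 2 or 3 was left out, beside 15.3%, 15% and 16.1% of all genes in those fits.

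A set of 17 of the 63 nuclear members was called lower in both lines, beside 13.5% of all genes tested. It included NDUFA5, NDUFB1, NDUFB5, NDUFS3 and NDUFV1 of complex I, SDHD of complex II, UQCR10, UQCRB, UQCRC2 and UQCRH of complex III, and COX7B, COX7C and COX8A of complex IV. Another 6 were called lower in EW8 and not in TC71 (NDUFA1, NDUFA2, NDUFB2, NDUFS1, UQCRFS1 and UQCRHL), beside 8.52% of all genes, and 9 in TC71 and not in EW8 (COX5A, COX6C, NDUFA3, NDUFA4, NDUFA6, NDUFB6, NDUFS5, NDUFV3 and SDHB), beside 6.98%. No member was called in opposite directions, and NDUFS8 was called higher in both lines. Both comparisons have their own vehicle libraries but share 1 fit.

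**Figure D3:**
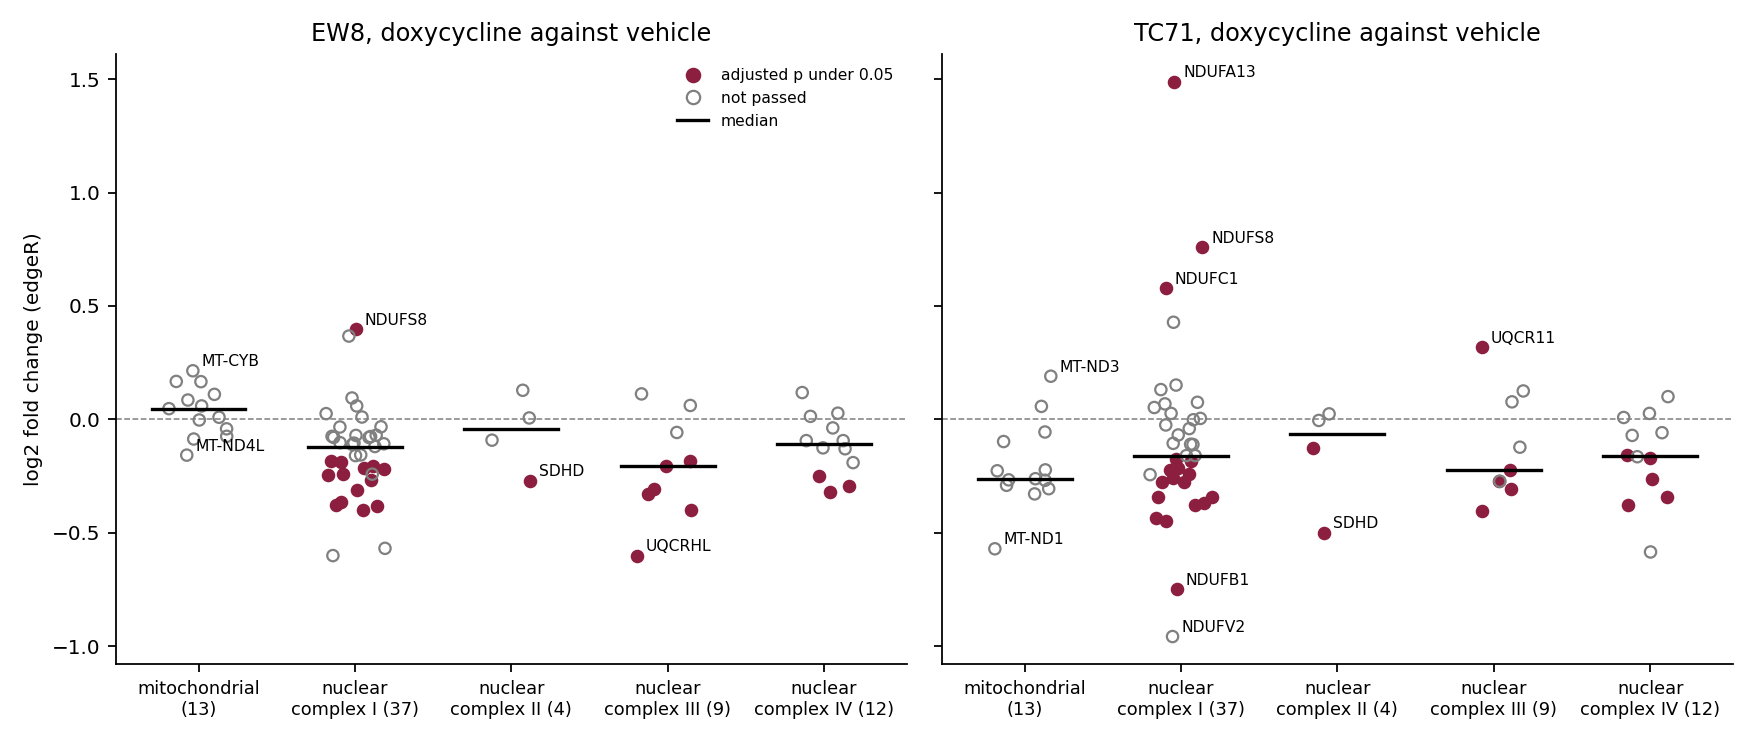
Log2 fold change of doxycycline against vehicle for each tested member, grouped by genome and complex, in EW8 (left) and TC71 (right). Filled points passed an adjusted p of 0.05, lines mark medians, and COX6B2, at the floor in TC71 under vehicle, is not drawn. None of the mitochondrial points is filled, and most filled nuclear points lie below 0, with NDUFS8 above 0 in both lines.

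Promoters are shown for 4 members whose changes passed in both lines: 3 that were lower, and NDUFS8, which was higher. The 3 were chosen because they hold a match to an AP-1 pattern or to a motif of NRF1 or the ETS factor GABP. Both of these factors are known to act on respiratory genes. Each run is the 250 bases upstream of the RefSeq start on the coding strand (GRCh38.p14), with motif matches in capitals. RefSeq and GENCODE starts can differ.
SDHD, chr11:112086623-112086872, plus strand: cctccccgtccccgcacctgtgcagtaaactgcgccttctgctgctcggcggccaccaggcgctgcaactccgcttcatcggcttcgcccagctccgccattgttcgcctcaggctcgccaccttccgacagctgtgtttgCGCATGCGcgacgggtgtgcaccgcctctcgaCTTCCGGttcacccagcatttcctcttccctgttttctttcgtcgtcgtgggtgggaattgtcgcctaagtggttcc
NDUFS3, chr11:47578824-47579073, plus strand: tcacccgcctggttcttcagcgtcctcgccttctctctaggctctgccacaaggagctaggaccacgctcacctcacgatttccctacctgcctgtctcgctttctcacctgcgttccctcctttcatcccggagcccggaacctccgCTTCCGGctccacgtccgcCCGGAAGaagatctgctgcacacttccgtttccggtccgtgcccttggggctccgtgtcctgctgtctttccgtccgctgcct
COX7C, chr5:86617691-86617940, plus strand: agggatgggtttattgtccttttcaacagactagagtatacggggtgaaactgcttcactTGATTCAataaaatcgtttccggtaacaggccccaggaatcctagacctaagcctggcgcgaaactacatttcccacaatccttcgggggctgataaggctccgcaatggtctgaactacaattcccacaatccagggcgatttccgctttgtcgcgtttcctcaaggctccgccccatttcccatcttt
NDUFS8, chr11:68030431-68030680, plus strand: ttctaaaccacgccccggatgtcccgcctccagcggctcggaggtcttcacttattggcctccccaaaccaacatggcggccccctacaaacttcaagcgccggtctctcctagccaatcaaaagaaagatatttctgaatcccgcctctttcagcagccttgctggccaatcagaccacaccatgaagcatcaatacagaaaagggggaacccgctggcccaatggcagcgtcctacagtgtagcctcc

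In SDHD the capitals mark an NRF1 core and then an ETS core, and in NDUFS3 they mark a pair of ETS cores. In COX7C they mark TGATTCA, a match to the AP-1 pattern TGANTCA through its free middle base. NDUFS8 had no match in these 250 bases. Promoters of 55 of the 67 nuclear members were in the table, and each motif was searched on both strands from 250 bases before to 50 bases after the start. The NRF1 core CGCANGCG was in 17 of 55 (30.9%, beside 10.6% of all 27305 promoters), the ETS core CCGGAAG in 15 (27.3%, beside 10.7%) and the YY1 core AAGATGGCG in 7 (12.7%, beside 1.85%). The AP-1 pattern TGANTCA, with any middle base, was in 4 of 55 (7.27%, beside 7.76%). Of the 14 promoters in the table among the 17 members lower in both lines, 3 held the NRF1 core, 4 the ETS core and 0 the YY1 core. The AP-1 pattern was in 1, that of COX7C. These are matches of letters and not evidence of binding.

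UQCRC2, a core subunit of complex III (chr16:21952660-21983660 in hg38, plus strand), was lower in both lines, and no other gene overlaps its exons. In EW8 it stood at 136, 139 and 138 CPM under vehicle and 102, 101 and 109 CPM under doxycycline (log2 fold change -0.40, SE 0.05, edgeR adjusted p = 7.43e-06). In TC71 it stood at 184, 179.7 and 199 CPM under vehicle and 153, 148 and 154 CPM under doxycycline (log2 fold change -0.31, SE 0.05, edgeR adjusted p = 1.16e-04). Every doxycycline library lay below every vehicle library of its line.

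NDUFS3, which encodes a core subunit of the peripheral arm of complex I (chr11:47565336-47584562, plus strand), stood at 71.9, 72.8 and 74.9 CPM under vehicle and 58.2, 53.7 and 56.7 CPM under doxycycline in EW8 (log2 fold change -0.38, SE 0.06, edgeR adjusted p = 3.82e-05). In TC71 it stood at 85.4, 87.6 and 91.4 CPM under vehicle and 76.9, 73.2 and 70.8 CPM under doxycycline (log2 fold change -0.26, SE 0.06, edgeR adjusted p = 0.00135), again without overlap. Its exons overlap other genes over 22.4% of their bases.

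Of the 4 complex II genes, 1 was called in EW8 and 2 in TC71, all lower. SDHD, which encodes a membrane anchor of complex II (chr11:112086773-112120013, plus strand), was called in both lines. It stood at 56.6, 55.4 and 53.8 CPM under vehicle and 46.8, 42.3 and 48.4 CPM under doxycycline in EW8 (log2 fold change -0.27, SE 0.07, edgeR adjusted p = 0.00544) and at 71.4, 61.0 and 64.1 CPM under vehicle and 45.1, 47.8 and 46.0 CPM under doxycycline in TC71 (log2 fold change -0.50, SE 0.07, edgeR adjusted p = 1.52e-05). The groups did not overlap in either line. The EW8 call of SDHD was lost without doxycycline replicate 2 (log2 fold change -0.17). SDHB, the iron-sulfur subunit, was called lower in TC71 at -0.13 (edgeR adjusted p = 0.0459) and was at 0.01 in EW8. That call was lost without a filter on low counts, in a fit of the TC71 libraries alone, and without any 1 of the 3 TC71 doxycycline libraries. SDHA, the catalytic flavoprotein, and SDHC, the other membrane anchor, did not pass in either line. SDHA stood at 193, 207 and 198 CPM under vehicle and 221, 214 and 218 CPM under doxycycline in EW8, without overlap (log2 fold change 0.13, SE 0.05, edgeR adjusted p = 0.054), where it passed as higher with DESeq2, with TMM without the mitochondrial genes, with a filter of at least 1 CPM in 3 libraries, and in the EW8 libraries alone. It was at 0.02 in TC71 on the log2 scale, and SDHC was at -0.09 and -0.01.

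COX7C, a small subunit of complex IV (chr5:86617904-86620962, plus strand), stood at 196, 176 and 174 CPM under vehicle and 149, 153 and 156 CPM under doxycycline in EW8 (log2 fold change -0.25, SE 0.06, edgeR adjusted p = 0.0012). In TC71 it stood at 176, 178 and 189 CPM under vehicle and 154, 147 and 151 CPM under doxycycline (log2 fold change -0.26, SE 0.06, edgeR adjusted p = 7.45e-04). The groups did not overlap in either line.

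The largest decreases in TC71 among members of at least 1 CPM were those of NDUFB1, SDHD, NDUFA3, NDUFA5 and UQCR10. NDUFB1, an accessory subunit of complex I, stood at 25.4, 24.3 and 28.8 CPM under vehicle and 14.7, 14.4 and 17.6 CPM under doxycycline in TC71 (log2 fold change -0.75, SE 0.12, edgeR adjusted p = 4.39e-05). In EW8 it stood at 23.8, 23.1 and 18.1 CPM under vehicle and 16.9, 16.3 and 19.1 CPM under doxycycline, where the groups overlapped and the call (log2 fold change -0.31, SE 0.12, edgeR adjusted p = 0.0413) was lost when any 1 of 5 of the 6 EW8 libraries was left out. NDUFA5 (accessory, complex I) changed by -0.36 in EW8 and -0.44 in TC71, and UQCR10 (accessory, complex III) by -0.33 and -0.40. In EW8 the largest decreases were those of UQCRHL, NDUFB5, UQCRC2, NDUFS3 and NDUFA2. UQCRHL is a near-identical copy of UQCRH, a hinge subunit of complex III, so that reads may be split or dropped between them. UQCRHL changed by -0.60 in EW8 (edgeR adjusted p = 4.32e-04) and -0.27 in TC71 (adjusted p = 0.0688, not passed), and UQCRH by -0.31 and -0.22, both passed. In TC71 UQCRHL passed as lower with median-ratio size factors, library size alone, TMM without the mitochondrial genes and DESeq2. It also passed without TC71 vehicle replicate 2. NDUFB5 changed by -0.40 and -0.28, both passed, and NDUFA2 by -0.38, passed, and -0.24, not passed. The EW8 call of NDUFA2 was lost without EW8 doxycycline replicate 1 or 2, and in TC71 it passed as lower with median-ratio size factors, library size alone, TMM without the mitochondrial genes and DESeq2, and without TC71 vehicle replicate 1.

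Increases were few. NDUFS8, which encodes an iron-sulfur core subunit of complex I (chr11:68030617-68036644, plus strand), stood at 80.3, 101 and 94.5 CPM under vehicle and 129.8, 124 and 110.4 CPM under doxycycline in EW8 (log2 fold change 0.40, SE 0.09, edgeR adjusted p = 0.00125). In TC71 it stood at 71.2, 79.2 and 83.8 CPM under vehicle and 127, 145 and 124 CPM under doxycycline (log2 fold change 0.76, SE 0.09, edgeR adjusted p = 1.19e-06), and in both lines every doxycycline library lay above every vehicle library. The difference between the lines in this response, 0.36 more in TC71, did not pass (edgeR adjusted p = 0.0527).

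NDUFC1, a small accessory subunit of complex I (chr4:139266880-139302551, minus strand), was called higher in TC71. It stood at 35.3, 28.8 and 30.2 CPM under vehicle and 46.7, 46.1 and 47.9 CPM under doxycycline there (log2 fold change 0.58, SE 0.08, edgeR adjusted p = 1.04e-05) and at 60.8, 66.0 and 65.3 CPM under vehicle and 72.6, 65.0 and 62.4 CPM under doxycycline in EW8 (log2 fold change 0.06, SE 0.08, edgeR adjusted p = 0.602). The groups were apart in TC71 and overlapped in EW8, and MGARP on the same strand covers 18.5% of the exon bases of NDUFC1. UQCR11, a small subunit of complex III, stood at 20.5, 22.1 and 25.8 CPM under vehicle and 29.3, 26.8 and 29 CPM under doxycycline in TC71 (log2 fold change 0.32, SE 0.09, edgeR adjusted p = 0.00684), without overlap, a call that was lost without TC71 vehicle replicate 1 (log2 fold change 0.17, adjusted p = 0.136).

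Both increases above the log2 limit of 1 were in TC71, in genes of low count. NDUFA13, a complex I subunit also known as GRIM-19, stood at 0.993, 1.47 and 0.699 CPM under vehicle and 3.08, 3.66 and 2.18 CPM under doxycycline (log2 fold change 1.49, SE 0.32, edgeR adjusted p = 7.27e-04) and the groups did not overlap. Other genes on its strand, YJEFN3 among them, cover 21.0% of its exon bases, and reads shared with them were dropped. COX6B2, the testis form of a complex IV subunit (chr19:55349306-55354814, minus strand), had 0 to 2 counts in the TC71 vehicle libraries and 26 to 37 in the TC71 doxycycline libraries, so it was at least 6.46-fold higher, measured against a floor of 6 counts per library. In EW8 it stood at 0.361, 0.567 and 1.13 CPM under vehicle and 0.859, 0.415 and 1.12 CPM under doxycycline and did not pass (edgeR adjusted p = 0.808). A gene that overlaps it on the same strand covers 30.9% of its exon bases.

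**Figure D4:**
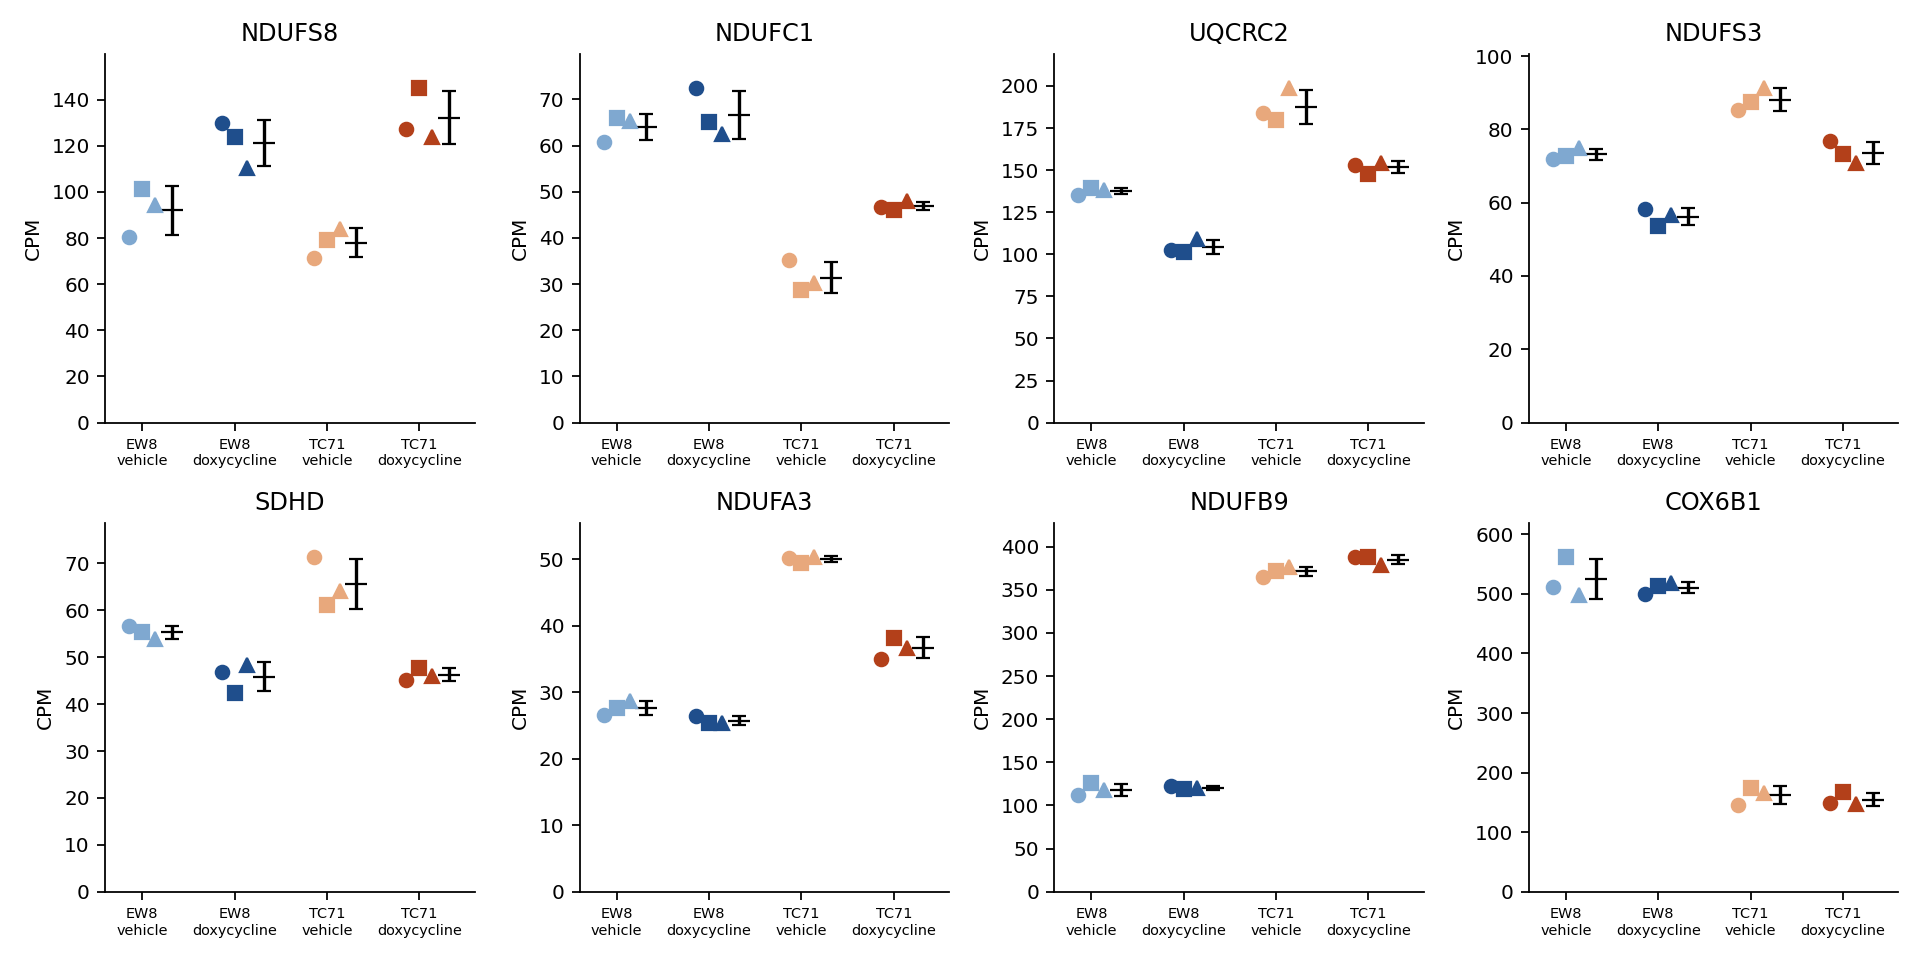
CPM of 8 nuclear members in each library, with points shaped by replicate (circle 1, square 2, triangle 3) and the mean and SD of each group of 3 in black. NDUFS8 is higher and UQCRC2, NDUFS3 and SDHD are lower in every doxycycline library than in every vehicle library of the same line, whereas NDUFB9 and COX6B1 differ mainly between the lines.

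The responses of the lines differed for 5 of 63 nuclear members (an interaction term, TC71 minus EW8), beside 19.3% of all genes tested. NDUFC1 differed by 0.52 (SE 0.11, edgeR adjusted p = 0.00307) and COX6B2 in the same direction. NDUFA3, an accessory subunit of complex I, stood at 50.2, 49.5 and 50.4 CPM under vehicle and 35.1, 38.3 and 36.7 CPM under doxycycline in TC71 (log2 fold change -0.45, SE 0.07, edgeR adjusted p = 3.25e-05) and at 26.6, 27.6 and 28.8 CPM under vehicle and 26.5, 25.4 and 25.4 CPM under doxycycline in EW8 (log2 fold change -0.10, SE 0.07, edgeR adjusted p = 0.27), a difference of -0.34 (adjusted p = 0.0198). NDUFS1, the largest core subunit of complex I, stood at 189, 187 and 191 CPM under vehicle and 164, 156 and 158 CPM under doxycycline in EW8 and at 195, 200.1 and 206 CPM under vehicle and 202, 191 and 209 CPM under doxycycline in TC71, a difference of 0.24 (adjusted p = 0.0221). UQCRFS1, the Rieske iron-sulfur protein of complex III, stood at 294, 303 and 297 CPM under vehicle and 254, 255 and 264 CPM under doxycycline in EW8 and at 130.2, 156 and 146 CPM under vehicle and 158, 149 and 148 CPM under doxycycline in TC71, a difference of 0.28 (adjusted p = 0.0231). For both genes the groups were apart in EW8 and overlapped in TC71. The EW8 call of UQCRFS1 was lost with TMM without the mitochondrial genes. It was also lost without EW8 vehicle replicate 3 or any 1 EW8 doxycycline library.

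Without TC71 vehicle replicate 1, 16 of 63 nuclear members differed in response, beside the 23.6% of all genes, and 3 of the 5 above were among them (NDUFA3, NDUFC1 and COX6B2). NDUFS1 and UQCRFS1 did not pass (0.10 and 0.09). Of the 16, 14 had the lower value in TC71, against 1 of 5 with all libraries. All genes shifted the same way. In that fit 2071 of them were called higher and 3095 lower in TC71, against 2572 and 1485 with all libraries. Their median interaction was -0.062, against 0.035. With libraries scaled by TMM without the mitochondrial genes, 8 differed, 6 of them lower in TC71, and the share of all genes is not given here. That scaling moved the median interaction of all genes from 0.035 to -0.069, and the nuclear members' median differed from it by -0.05 in both.

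Between the lines under vehicle, of 63 nuclear members, 18 were higher and 25 lower in TC71 than in EW8, beside 28.2% and 33.5% of all genes tested. Scaling by TMM without the mitochondrial genes gave 24 higher and 19 lower, as did the fit without TC71 vehicle replicate 1. In the latter, 6781 of all 21905 genes were called higher and 6517 lower. For the former, the shares of all genes are not given here. Past a log2 fold change of 1 were 1 higher and 7 lower, beside 30.6% of all genes in either direction.

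NDUFB9, an accessory subunit of complex I had the largest positive difference, at 112, 126 and 117 CPM in EW8 and 365, 372 and 376 CPM in TC71 (log2 fold change 1.65, SE 0.05, edgeR adjusted p = 8.77e-15). For doxycycline its log2 fold changes were 0.03 in EW8 and 0.05 in TC71, not passed. COX6B1 (chr19:35648223-35658861, plus strand) was the lowest relative to EW8 among members of at least 1 CPM, at 512, 562 and 499 CPM in EW8 and 146, 175 and 167 CPM in TC71 (log2 fold change -1.69, SE 0.07, edgeR adjusted p = 3.04e-13). NDUFA9 followed at -1.16 and NDUFB11, whose exons the opposite-strand gene RBM10 covers over 44.9% of their bases, at -1.10, while NDUFA3 and NDUFV3 were higher by 0.85 and 0.84, all of them passed. UQCRFS1 (-1.05) and NDUFC1 (-1.03) also passed the limit of 1.

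**Figure D5:**
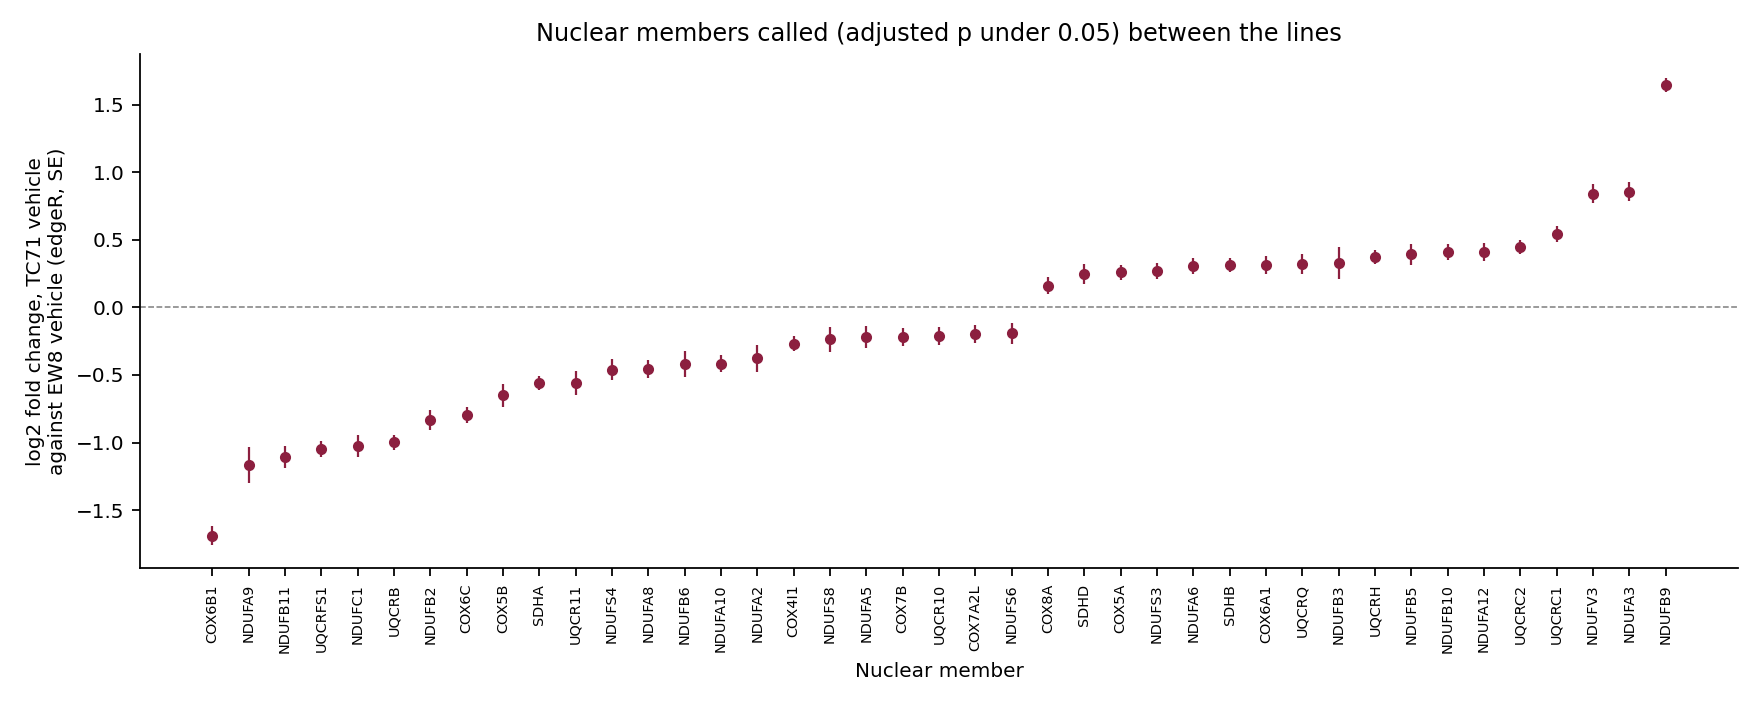
Log2 fold change of TC71 against EW8 under vehicle for the nuclear members called at an adjusted p of 0.05, in order of size, with bars of 1 SE. COX6B2 and COX7A1, at the floor in TC71 under vehicle, are not drawn. NDUFB9 at 1.65 and COX6B1 at -1.69 mark the ends of the range.

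Several complex IV subunits have a widely expressed gene and a counterpart known from particular tissues. COX4I1, COX6A1, COX7A2, COX7B and COX8A were at 61.0 (lowest) to 206 CPM (highest) in every library. Their counterparts COX4I2, COX7B2 and COX8C had 0 counts in all 12 libraries, which allows up to 3 read pairs, or 6 counts, in each, and COX6A2, the heart and muscle form, had at most 2 counts. COX7A1, also a heart and muscle form, had 10 to 13 counts in EW8 under vehicle and 1 to 3 in TC71. Measured against the floor of 6 counts, it was at least 2.2-fold higher in EW8. It was called lower in TC71, a call lost without TC71 vehicle replicate 1 (log2 fold change -2.54, edgeR adjusted p = 0.0737). COX6B2 was likewise at least 6.28-fold higher in EW8 than in TC71 under vehicle. Of the main forms, COX7B changed by -0.29 and -0.34 and COX8A by -0.32 and -0.38 in EW8 and TC71, all passed. COX4I1 was at 0.03 and -0.06, COX6A1 at -0.09 and 0.03, COX6B1 at -0.04 and -0.07, COX7A2 at 0.12 and 0.10, and COX7A2L, which acts in supercomplex assembly, at -0.13 and -0.17, none passed. Some of these lay near the threshold. COX7A2L was called lower in TC71 under each of the 3 other scalings, the 2 other filters and DESeq2, and COX7A2 higher in EW8 with TMM without the mitochondrial genes, in the EW8 libraries alone and without EW8 vehicle replicate 3. COX4I1 and COX6B1 were called lower in TC71 with library size alone, and all of COX4I1, COX6B1 and COX7A2L without TC71 vehicle replicate 1.

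NDUFA4, placed in complex I by its symbol but now counted to complex IV, was called lower in TC71 at -0.17 (edgeR adjusted p = 0.028) and was at -0.08 in EW8. That call was lost in the TC71 libraries alone and without TC71 doxycycline replicate 2 or 3. Its hypoxia-induced relative NDUFA4L2, outside the symbol rule, stood at 1.74, 5.99 and 5.65 CPM under vehicle and 1.38, 2.53 and 1.73 CPM under doxycycline in TC71 (log2 fold change -1.25, SE 0.36, edgeR adjusted p = 0.00755) and at -0.04 in EW8, not passed, and its groups overlapped in both lines. NDUFAB1, the mitochondrial acyl carrier protein and a complex I subunit that the rule also misses, was at -0.13 and -0.02, not passed.

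Other genes of the pathway were counted from lists, beside the shares of all genes called lower and higher, 22.0% and 21.9% in EW8 and 20.4% and 25.1% in TC71. Of 3 cytochrome c and c1 genes, 2 were called lower and 1 higher in EW8 (median log2 fold change -0.31), and 2 lower and 1 higher in TC71 (median -0.53). CYC1, cytochrome c1 of complex III, stood at 291, 340.0 and 297 CPM under vehicle and 253, 253 and 241 CPM under doxycycline in EW8 (log2 fold change -0.31, SE 0.08, edgeR adjusted p = 0.00342) and changed by -0.58 in TC71, and CYCS, the electron carrier cytochrome c, changed by -0.45 and -0.53, all passed. Of 2 complex I subunits outside the rule, 0 were called lower and 0 higher in EW8 (median log2 fold change -0.09), and 1 lower and 0 higher in TC71 (median -0.64). Of 18 nuclear ATP synthase genes, 9 were called lower and 0 higher in EW8 (median log2 fold change -0.20), and 10 lower and 0 higher in TC71 (median -0.24). Of 18 assembly factors of complex I, 10 were called lower and 1 higher in EW8 (median log2 fold change -0.23), and 9 lower and 0 higher in TC71 (median -0.22). Of 10 for complexes II and III, 6 were called lower and 0 higher in EW8 (median log2 fold change -0.32), and 5 lower and 2 higher in TC71 (median -0.29). Of 23 tested for complex IV (24 listed), 9 were called lower and 1 higher in EW8 (median log2 fold change -0.17), and 9 lower and 1 higher in TC71 (median -0.09). COX20, a complex IV assembly factor, was the one assembly factor past the log2 limit of 1, at -1.31 in EW8 and -0.67 in TC71, the latter not passed.

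Of 27 genes for the expression and upkeep of mitochondrial DNA, 16 were called lower and 3 higher in EW8 (median log2 fold change -0.26), and 20 lower and 0 higher in TC71 (median -0.31), beside the 22.0% and 20.4% of all genes called lower. TFAM, which packages mitochondrial DNA and starts its transcription, stood at 130.0, 119 and 123 CPM under vehicle and 79.3, 77.4 and 78.1 CPM under doxycycline in EW8 (log2 fold change -0.66, SE 0.06, edgeR adjusted p = 3.92e-08). In TC71 it stood at 144, 129.7 and 145 CPM under vehicle and 91.5, 90.5 and 86.0 CPM under doxycycline (log2 fold change -0.64, SE 0.06, edgeR adjusted p = 4.73e-08), and the groups did not overlap in either line. LRPPRC, which stabilizes mitochondrial mRNAs, changed by -0.50 and -0.56, both passed. POLRMT, the mitochondrial RNA polymerase, was called lower in TC71 (-0.35) and was at 0.04 in EW8, and this difference between the lines passed (edgeR adjusted p = 0.0283). These decreases stood beside the mitochondrial mRNAs of the same libraries, of which none was called with all libraries and 9 were called higher in TC71 without vehicle replicate 1. Without TC71 vehicle replicate 2 or 3 instead, 5 of the mitochondrial mRNAs were called lower there in either case.

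Of 12 tested regulators of mitochondrial biogenesis (13 listed), 5 were called lower and 1 higher in EW8 (median log2 fold change -0.21), and 6 lower and 1 higher in TC71 (median -0.42), beside the same shares of all genes. NRF1 and GABPA, whose motifs are described above, changed by -0.41 and -0.46 and by -0.30 and -0.47 in EW8 and TC71, all passed. ESRRA did not pass (0.13 and 0.20), and PPARGC1A, the coactivator PGC-1 alpha, did not reach the filter, with group means of 0 to 0.195 CPM. Its relative PPARGC1B stood at 23.6, 22.2 and 25 CPM under vehicle and 9.90, 10.9 and 10 CPM under doxycycline in EW8 (log2 fold change -1.20, SE 0.10, edgeR adjusted p = 2.53e-08) and at 23.4, 30.1 and 26.4 CPM under vehicle and 17, 16.9 and 17.5 CPM under doxycycline in TC71 (log2 fold change -0.64, SE 0.10, edgeR adjusted p = 4.30e-05), without overlap in either line, and the responses differed (adjusted p = 0.00935). ESRRB, an orphan nuclear receptor, changed by -1.33 and -1.81, both passed, while ESRRG passed in TC71 (edgeR adjusted p = 0.00949) with 0.153, 0.306 and 0.582 CPM under vehicle and at most 2 counts in any doxycycline library. PPARD was higher in TC71 (1.02) and PPARG in EW8 (1.19), both passed.

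Of 19 genes that mark mitochondrial content, 9 were called lower and 2 higher in EW8 (median log2 fold change -0.19), and 10 lower and 4 higher in TC71 (median -0.20), again beside 22.0% of all genes called lower in EW8 and 20.4% in TC71. Of 14 tested genes of the mitochondrial stress response (15 listed), 5 were called lower and 2 higher in EW8 (median log2 fold change -0.09), and 10 lower and 0 higher in TC71 (median -0.40). In that list GDF15, a secreted stress signal, stood at 0.496, 1.20 and 0.647 CPM under vehicle and 1.75, 2.92 and 2.83 CPM under doxycycline in EW8 (log2 fold change 1.68, SE 0.46, edgeR adjusted p = 0.00562), and ASNS, asparagine synthetase, changed by -1.17 in TC71 (edgeR adjusted p = 0.0321), where its groups overlapped. In TC71 the vehicle libraries differed among themselves in this list, as genes chosen after their values were seen show. ATF4, the transcription factor of this response, stood at 457, 719 and 883 CPM under vehicle and 499, 520.1 and 490.2 CPM under doxycycline and its target CHAC1 at 5.16, 28.8 and 121 CPM under vehicle and 18.4, 23 and 18.9 CPM under doxycycline, so TC71 vehicle replicate 1 was the lowest of its group in both. Without that library 12 of 14 were called lower in TC71 and 0 higher (median -0.57), beside 23.9% of all genes called lower in that fit.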

How the data were processed

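RNA-seq of 12 libraries (EW8 and TC71, vehicle or doxycycline, 3 each) was analysed from a single table of counts per gene. The authors aligned read pairs to hg38 with STAR and deposited whole-number counts, not normalized, made with featureCounts 2.0.1 on GENCODE 29. Per the file headers each mate was counted, strand was not used, and reads on several places or genes were dropped. No column of values was left unused (0).

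Symbols were matched by gene identifier for 58207 genes. Members and lists were chosen with earlier results of these data known. Counts were filtered (filterByExpr, 21013 genes kept), scaled by TMM and fitted in 1 quasi-likelihood model of 4 groups with edgeR 4.0.16 in R 4.3.3, in place of the DESeq2 of the study, which was run as an alternative (1.42.0). Adjustment was by the Benjamini-Hochberg method across all tested genes, and a call needs an adjusted p under 0.05. The fits were tested on simulated data. Levels per length used the deposited exon length. Tables and figures were made in Python 3.11.15 with pandas 2.3.3, numpy 2.4.6 and matplotlib 3.10.9.

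Text names all mitochondrial members, the 5 nuclear members most changed in each direction per line and the 3 most changed in each direction for the differences between lines (called, at least 1 CPM in each group), those past a log2 fold change of 1, the SDH genes, isoform families and, from the lists, genes past that limit and 10 chosen regulators or partners. Values of other members were named after they were seen, and 1 item is not reported here. Alternatives were other scalings, filters and tools, fits of the compared groups alone, a replicate block and leaving out each library. Floors (6 counts, or 3 read pairs, per library) cover counting error only. Total counts of 42860665 to 60853649 per library limit the precision of low genes.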

Additional observations from a re-analysis of the deposited data

Results flagged for a closer look

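The response to doxycycline differed between the lines for 5 nuclear members, tested as an interaction in edgeR over all 12 libraries (TC71 minus EW8, log2 scale). The differences were -0.345 for NDUFA3, 0.52 for NDUFC1, 0.245 for NDUFS1, 0.285 for UQCRFS1 and 5.415 for COX6B2. The value for COX6B2 depends on the prior count, since its TC71 vehicle libraries held 0 to 2 counts. NDUFA3, NDUFC1 and COX6B2 passed without TC71 vehicle replicate 1 and NDUFS1 and UQCRFS1 did not. NDUFS1 also missed the threshold under 3 other scalings (0.139 to 0.208) and without a filter on low counts (0.24). The same held without replicate 3 of EW8 vehicle, TC71 vehicle or TC71 doxycycline, without TC71 doxycycline replicate 1, or without any 1 EW8 doxycycline library. UQCRFS1 also missed it with median-ratio size factors (0.243), TMM without the mitochondrial genes (0.178) and DESeq2 (0.243). The same held without EW8 vehicle replicate 2 or 3, TC71 vehicle replicate 3, TC71 doxycycline replicate 1 or any 1 EW8 doxycycline library. NDUFA3 missed it without a filter (-0.349) and without EW8 vehicle replicate 1 (-0.317) or TC71 doxycycline replicate 1 (-0.314).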

How the results depend on the processing

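Of 104 pairs of a named gene and a comparison, 44 were called, and 11 of these lost the call under at least 1 alternative. With a log2 fold limit of 1, the nuclear members called in EW8 were 0 higher and 0 lower, in TC71 2 higher and 0 lower, 1 differed in response and 8 between the lines. Nuclear members higher in EW8 numbered 3 with TMM without the mitochondrial genes, 2 with a filter of at least 1 CPM in 3 libraries, 2 with DESeq2 and 3 in a fit of the EW8 libraries alone. Nuclear members that differed in response numbered 3 with median-ratio size factors and 8 with TMM without the mitochondrial genes. Mitochondrial members called without a filter on low counts numbered 3 in EW8, 10 in TC71, 8 for the difference in response and 7 between the lines, and 4 were called in EW8 in the fit of its libraries alone. The cause of these shifts was not tested. Apart from the EW8 libraries alone (27.5% called higher), shares of all genes called under these scalings, filters and tools are not given here. The counts therefore describe the members alone.

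With 1 library left out at a time, nuclear members called in EW8 ran from 1 to 3 higher and from 12 to 24 lower, and those that differed in response from 2 to 16. Over all genes, those called lower in EW8 ran from 3281 of 21845 to 4614 of 21956. Mitochondrial members called ran from 0 to 4 in EW8, 0 to 9 in TC71, 0 to 5 for the difference in response and 0 to 13 between the lines, in each case with the highest number without TC71 vehicle replicate 1. In that fit 5405 of all 21905 genes were called higher in EW8, and the shares for the other comparisons are given above. Log2 fold changes of mitochondrial members in TC71 ran from -0.529 to 0.286 for MT-ND2, -0.526 to 0.27 for MT-ND4, -0.553 to 0.196 for MT-ND4L, -0.587 to 0.205 for MT-ND5, -0.532 to 0.275 for MT-ND6, -0.283 to 0.404 for MT-ATP6 and -0.335 to 0.357 for MT-ATP8, positive without TC71 vehicle replicate 1 alone. The log2 ratio of mitochondrial to nuclear counts in TC71, -0.017 for doxycycline minus vehicle, was 0.002 as a mean over genes of log2 CPM, 0.012 without the 3 highest nuclear members, and from -0.231 to 0.385 with 1 library left out, with 0.003 without doxycycline replicate 2.

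Labels give the groups the same replicate numbers, but same-numbered vehicle and doxycycline libraries did not deviate together (r from -0.113 to 0.096 across genes), and not every library correlated best with its own number. With the replicate block, 2 mitochondrial members were called between the lines, and the calls for doxycycline numbered 23 lower and 1 higher in EW8 and 26 lower and 5 higher in TC71, as without it. Genes of few counts, such as COX6B2, COX7A1 and NDUFA13, are limited by depth.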
